A study of Homo sapiens with 16 samples.

Results

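The heat shock and DNAJ chaperones are protein-coding genes whose symbols begin with HSPA, HSPB, HSPD, HSPE, HSPH, HSP90 or DNAJ, followed by a digit or A, B or C. The heat shock transcription factors HSF1 and HSF2 and the co-chaperone BAG3 were added. All these genes were chosen by a rule on the symbol that uses no measured value, although earlier results of these data were known. The rule gave 79 of the 44591 genes listed, of which 19233 were protein-coding. Their mRNA was measured by sequencing polyadenylated RNA of NCI-H1688, an established human small cell lung cancer line, in 16 libraries from 8 groups of 2 biological duplicates. Cells were cultured for 24 h without drug or with sanguinarine chloride at 1 µM, cepharanthine at 3 µM or evodiamine at 3 µM, which are plant alkaloids. The remaining groups received the BET bromodomain inhibitor (+)-JQ-1 at 28 µM (JQ1 below), the histone deacetylase inhibitor panobinostat at 60 nM, or either of these together with sanguinarine chloride at the doses given singly. All groups are therefore 1 cell line in culture, with no genetic change made to it. The control is labelled untreated, while the series design describes DMSO.

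Molecular chaperones bind unfolded protein and help it to fold. HSP70 proteins work in a cycle driven by ATP, in which J-domain (DNAJ) proteins bring substrates and start ATP hydrolysis, and HSP110 proteins release the nucleotide. HSP90 takes over partly folded clients, small heat shock proteins hold unfolded protein without using ATP, and separate HSP70, HSP90 and HSP60 proteins serve the endoplasmic reticulum and the mitochondria. HSF1 raises the inducible members through heat shock elements, which are inverted repeats of the pentamer nGAAn, and the endoplasmic reticulum members respond to the unfolded protein response through a different element.

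The promoters that hold such an element are shown here because the HSP70 genes HSPA8, HSPA6 and HSPA5 behaved differently from each other in the results below. Promoters were taken from RefSeq (GRCh38.p14) and were found for 69 of the 79 genes. The 250 bases before each start were searched for 3 alternating heat shock pentamers, written GAANNTTCNNGAA or TTCNNGAANNTTC, which are reverse complements of each other, so that both strands were covered. These letters were found in 3 of the 69 promoters (4.35%) and in 120 of all 27305 promoters (0.439%). HSPA8, the constitutive cytosolic HSP70, had 2 matches, which only 9 of all promoters had (0.033%). No match lay in these 250 bases of HSPA1A, HSPA1B, DNAJB1, HSPH1, HSP90AA1 or BAG3. A link between these letters and the changes below was not tested. Each line gives the strand of the gene, 5′ to 3′, with the match in capitals.
HSPA8 (chr11:123062167-123062378, minus strand): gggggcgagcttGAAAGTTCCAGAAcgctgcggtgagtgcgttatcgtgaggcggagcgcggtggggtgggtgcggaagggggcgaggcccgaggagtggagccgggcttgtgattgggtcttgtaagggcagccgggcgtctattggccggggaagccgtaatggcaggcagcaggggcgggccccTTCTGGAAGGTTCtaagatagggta
HSPA6 (chr1:161524454-161524490, plus strand): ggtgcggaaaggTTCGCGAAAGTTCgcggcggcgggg
DNAJB6 (chr7:157336861-157336897, plus strand): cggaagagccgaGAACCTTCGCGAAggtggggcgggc

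The endoplasmic reticulum stress element, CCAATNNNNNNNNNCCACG or its reverse complement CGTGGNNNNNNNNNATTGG, was searched in the same windows after the expression values had been seen. It was found in 2 of the 69 promoters (2.9%), those of HSPA5 and HSP90B1, and in 22 of all 27305 (0.0806%). A match describes the letters only, and its absence says nothing about whether a factor binds.
HSPA5 (chr9:125241379-125241421, minus strand): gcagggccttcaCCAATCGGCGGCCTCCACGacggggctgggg
HSP90B1 (chr12:103930204-103930351, plus strand): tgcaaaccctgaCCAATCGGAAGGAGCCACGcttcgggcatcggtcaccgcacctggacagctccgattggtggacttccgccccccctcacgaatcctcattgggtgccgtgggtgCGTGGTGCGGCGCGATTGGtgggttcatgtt

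Depth ran from 39996881 to 64060919 counted reads per library, so that 3 counts correspond to 0.0468 to 0.075 CPM (counts scaled to a library of a fixed total). One deposited table held the control and single alkaloids and a second held JQ1, panobinostat and the combinations, so groups were compared within a table. The read-through genes HSPE1-MOB4 and DNAJC25-GNG10 lay at 0.162 CPM or less in the first table and between 24.7 and 80.2 CPM in the second. Every library of the second table held JQ1 or panobinostat, so a difference in counting and one in treatment cannot be told apart. Duplicates of 7 groups differed by a median of 0.05 to 0.16 on the log2 scale over the chaperone genes, whereas those of sanguinarine with panobinostat differed by 0.40. In the second table the titles and the treatment labels disagree: the titles with the prefix S- carry the single-drug treatments and those without it the combinations, and the treatment labels were followed. HMOX1, an oxidative stress gene that sanguinarine raised from between 1.43 and 1.71 CPM to between 195 and 229 CPM, lay between 195 and 704 CPM in the 4 libraries labelled as combinations and between 8.80 and 9.86 CPM in those labelled JQ1 or panobinostat alone. Of the neuroendocrine markers, NEUROD1 was at 0 in 16 of 16 libraries and INSM1 and CHGA reached at most 0.121 and 0.85 CPM, while SYP ranged from 0.252 to 35.3 CPM and NCAM1 from 0.0371 to 97.1 CPM. By contrast, the epithelial markers KRT8 (1744 to 5207 CPM) and EPCAM (91.0 to 197 CPM) were high. The leukocyte marker PTPRC and the fibroblast marker COL1A2 stayed at or under 0.454 CPM, although COL1A1 lay between 16.1 and 112 CPM.

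Chaperone mRNA made up 1.41% and 1.43% of all counts in the control libraries. Sanguinarine libraries held 1.14% and 1.13%. Cepharanthine libraries held 1.21% and 1.28%, and evodiamine libraries 1.55% and 1.53%. The control libraries therefore lay above both sanguinarine and both cepharanthine libraries and below both evodiamine libraries. In the second table JQ1 libraries held 1.06% and 1.11%, and panobinostat libraries 0.96% and 1.02%. Adding sanguinarine to JQ1 gave 1.08% and 1.02%, and adding it to panobinostat gave 0.842% and 1.02%.

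**Figure D1:**
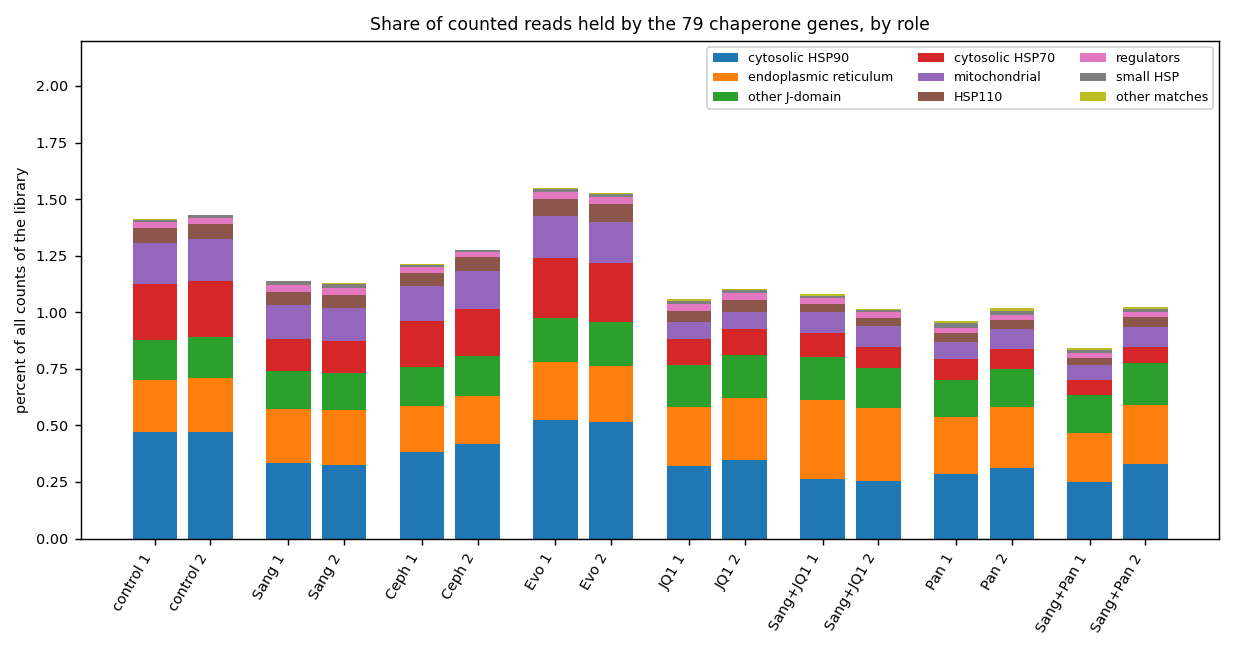
Percent of all counts of a library (vertical axis) held by the 79 chaperone genes, 1 bar for each library, divided by role. Within the first table the evodiamine bars are the highest, at 1.55% and 1.53%. Within the second, the first library of sanguinarine with panobinostat is the lowest, at 0.842%.

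Per length, 8 genes exceeded 100 RPKM (CPM per kilobase of transcript) in the control. HSPA8, at 897.8 RPKM, and HSP90AB1, the constitutive cytosolic HSP90, at 866.1 RPKM, were the most abundant. They were followed by HSP90AA1, the inducible cytosolic HSP90, at 542 RPKM and by HSPD1, the mitochondrial HSP60, at 403 RPKM. HSP90B1 and HSPA5, the HSP90 and HSP70 of the endoplasmic reticulum, had 312 and 229 RPKM. The stress-inducible HSP70 genes HSPA1B and HSPA1A were present at 42.3 and 30.1 RPKM without any drug, and 13 of the 79 genes were under 0.1 RPKM. HSPA1A and HSPA1B share 72.4% and 72.8% of their 100-base stretches with other genes, mainly each other, and HSPA6 shares 27.8% with HSPA7, so the division of reads within these pairs is uncertain.

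Sanguinarine lowered the abundant folding machinery of the cytosol and mitochondria and raised a smaller group that included HSPB1, HSPB8, DNAJB2 and DNAJC4. Of the 79 genes, 69 passed the filter on low counts and were tested in the first table, and 42 changed at an adjusted p under 0.05, 15 upward and 27 downward. Over all 18756 genes tested, 41.9% changed, 22% upward and 19.8% downward, so the chaperone genes held a share near the background upward (21.7%) and a larger one downward (39.1%). Their median log2 change was −0.09, against 0.04 over all genes. These shares are not matched on expression level. In a fit of all 16 libraries together 29 changed (all genes 22%), and HSPH1, HSPA13, HSPA1B, HSP90B1, DNAJB4, DNAJB5, DNAJA4, BAG3, HSF2 and HSPB9 were among the calls lost. Tests are edgeR's quasi-likelihood test with Benjamini-Hochberg adjustment over all genes of the table, and ± after a log2 change is its approximate standard error. In bulk RNA, fewer cells of one state and less RNA per cell cannot be told apart.

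HSPA8 changed most firmly. It had 2200 and 2217 CPM in the control libraries and 1179 and 1145 CPM with sanguinarine, a log2 change of −1.04 ± 0.04 (adjusted p = 3.09e-19). The groups did not come near each other, and this was the one chaperone gene that fell by more than 2-fold. The change is more negative than the CPM ratio because TMM scaling lowered every log2 change of this comparison by 0.11, which turned the direction of none of the 42 calls. Its stress-inducible relatives moved little: HSPA1B fell by 0.24 ± 0.06, a call lost without the second sanguinarine library (−0.21, adjusted p = 0.0619), and HSPA1A had a log2 change of −0.17 ± 0.07 (adjusted p = 0.0504). HSPA6, an HSP70 that is nearly silent in unstressed cells, went the other way, with 28 and 14 counts in the control and 75 and 74 with sanguinarine. Its log2 change was 1.59 ± 0.42 (adjusted p = 0.00286), and 1.03 without the second control library (adjusted p = 0.0903). HSPA12A, a divergent HSP70, rose by 0.59 ± 0.15.

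Both cytosolic HSP90 genes fell. HSP90AA1 had 2198 and 2219 CPM in the control and 1517 and 1463 CPM with sanguinarine, and HSP90AB1 had 2503 and 2511 CPM against 1803 and 1776 CPM. The log2 changes were −0.68 ± 0.05 (adjusted p = 4.29e-13) and −0.60 ± 0.04 (adjusted p = 2.31e-13). All 3 HSP110 genes fell as well, HSPH1 by 0.34 ± 0.05, HSPA4L by 0.36 ± 0.06 and HSPA4 by 0.28 ± 0.05. Their control and sanguinarine libraries did not overlap, and the share of all genes for which this holds was not computed. All 3 were called in these same libraries, so the lack of overlap is no further support. HSPH1 lost its call in the fit of all 16 libraries (adjusted p = 0.053).

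Of the 9 mitochondrial genes, 6 fell (all genes 19.8%) and 1 rose (all genes 22%). HSPE1, the HSP10 lid of the HSP60 chamber, had 86.1 and 90.2 CPM in the control and 51.4 and 53.8 CPM with sanguinarine, a log2 change of −0.86 ± 0.06 (adjusted p = 1.35e-12). HSPD1, which forms the chamber and is transcribed from a shared promoter with HSPE1, fell by 0.57 ± 0.05, and HSPA9, the mitochondrial HSP70, fell by 0.28 ± 0.05. DNAJC11 fell by 0.43 ± 0.08. DNAJC30 rose by 0.62. HSPE1-MOB4, which overlaps HSPE1, was not counted to a testable level in the first table, so the HSPE1 change was not divided with it there.

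Of 5 small heat shock genes tested, 3 rose (all genes 22%) and 0 fell (all genes 19.8%). HSPB6 (log2 change 0.40, adjusted p = 0.709) and HSPB7 (1.96, adjusted p = 0.0978) did not pass the test. HSPB1 (HSP27) had 77.3 and 85.5 CPM in the control and 128 and 130 CPM with sanguinarine, a log2 change of 0.55 ± 0.07 (adjusted p = 3.22e-08). HSPB8, which works with BAG3 in the removal of aggregates by autophagy, had 15.7 and 16.7 CPM against 30.7 and 32.6 CPM, a log2 change of 0.86 ± 0.09 (adjusted p = 1.6e-09). BAG3 itself rose by 0.21 ± 0.06, a call lost without the first control library (0.19, adjusted p = 0.0569) or the first sanguinarine library (0.16, adjusted p = 0.0971). HSPB9 was also called, on 2 and 1 counts in the control and 18 and 11 with sanguinarine. That call was lost with DESeq2, in the fit of all 16 libraries and without any library other than the second of sanguinarine, and no fold is given for it.

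Among J-domain genes outside the organelles, 4 rose (all genes 22%) and 10 fell (all genes 19.8%) of 23 tested. DNAJC4 rose most, from 10.3 and 9.06 CPM to 20.1 and 22.5 CPM, a log2 change of 1.03 ± 0.11 (adjusted p = 2.69e-09). DNAJB2, which carries ubiquitin-binding motifs, had 64.0 and 62.5 CPM in the control and 122 and 119 CPM with sanguinarine, a log2 change of 0.81 ± 0.06 (adjusted p = 2e-12). DNAJB4 rose by 0.46 ± 0.12 and DNAJB5 by 0.68 ± 0.21. The call of DNAJB4 was lost without the first sanguinarine library (0.31, adjusted p = 0.119), and that of DNAJB5 without that library (0.52, adjusted p = 0.128) or the second control library (0.50, adjusted p = 0.147). The main HSP40 partners of cytosolic HSP70 fell: DNAJB1 by 0.57 ± 0.06, from 225 and 218 CPM to 161 in both libraries, and DNAJA1 by 0.46 ± 0.05. DNAJC9, which also binds histones, fell by 0.74 ± 0.06 (adjusted p = 4.42e-12), from 140 CPM in both control libraries to 91.5 and 89.9 CPM.

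In the endoplasmic reticulum 4 of 13 genes rose (30.8%, all genes 22%) and 2 fell (15.4%, all genes 19.8%), shares near the background. The 2 that fell were HSP90B1 and DNAJB11. DNAJB11 fell by 0.27 ± 0.06 (adjusted p = 0.00059) and was not followed through the alternative runs. DNAJB9, a target of the unfolded protein response that binds HSPA5, had 8.06 and 7.76 CPM in the control and 13.8 and 14.3 CPM with sanguinarine, a log2 change of 0.72 ± 0.12 (adjusted p = 1.05e-05). HSPA5 itself had 901 and 918 CPM against 933 and 962 CPM and did not pass the test, with a 95% interval of its log2 change from −0.14 to 0.04, so its sign differs between plain CPM and TMM scaling. HSP90B1 fell by 0.15 ± 0.05, a call lost without the second control library (−0.14, adjusted p = 0.101) or the first sanguinarine library (−0.14, adjusted p = 0.0856). HSF1 had a log2 change of 0.14 ± 0.06 (adjusted p = 0.0721), and HSF2 one of −0.29 ± 0.11 whose call was lost without either control library (−0.28, adjusted p = 0.108, and −0.32, adjusted p = 0.0665) or the second sanguinarine library (−0.26, adjusted p = 0.166).

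Of 20 cofactors and other heat shock genes, 15 fell (all genes 19.8%) and 1 rose (all genes 22%). CHORDC1, an HSP90 partner, fell by 0.85 ± 0.07, FKBP4 by 0.47 ± 0.06 and STIP1, which links HSP70 to HSP90, by 0.45 ± 0.05, while ZFAND2A, a stress-inducible regulator of the proteasome, rose by 0.50 ± 0.10. All 8 subunits of the cytosolic chaperonin TRiC fell, CCT5 by 0.71 ± 0.05 and TCP1 by 0.51 ± 0.06. Calls of the cofactors and TRiC subunits were not followed through the alternative runs, here or below.

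**Figure D2:**
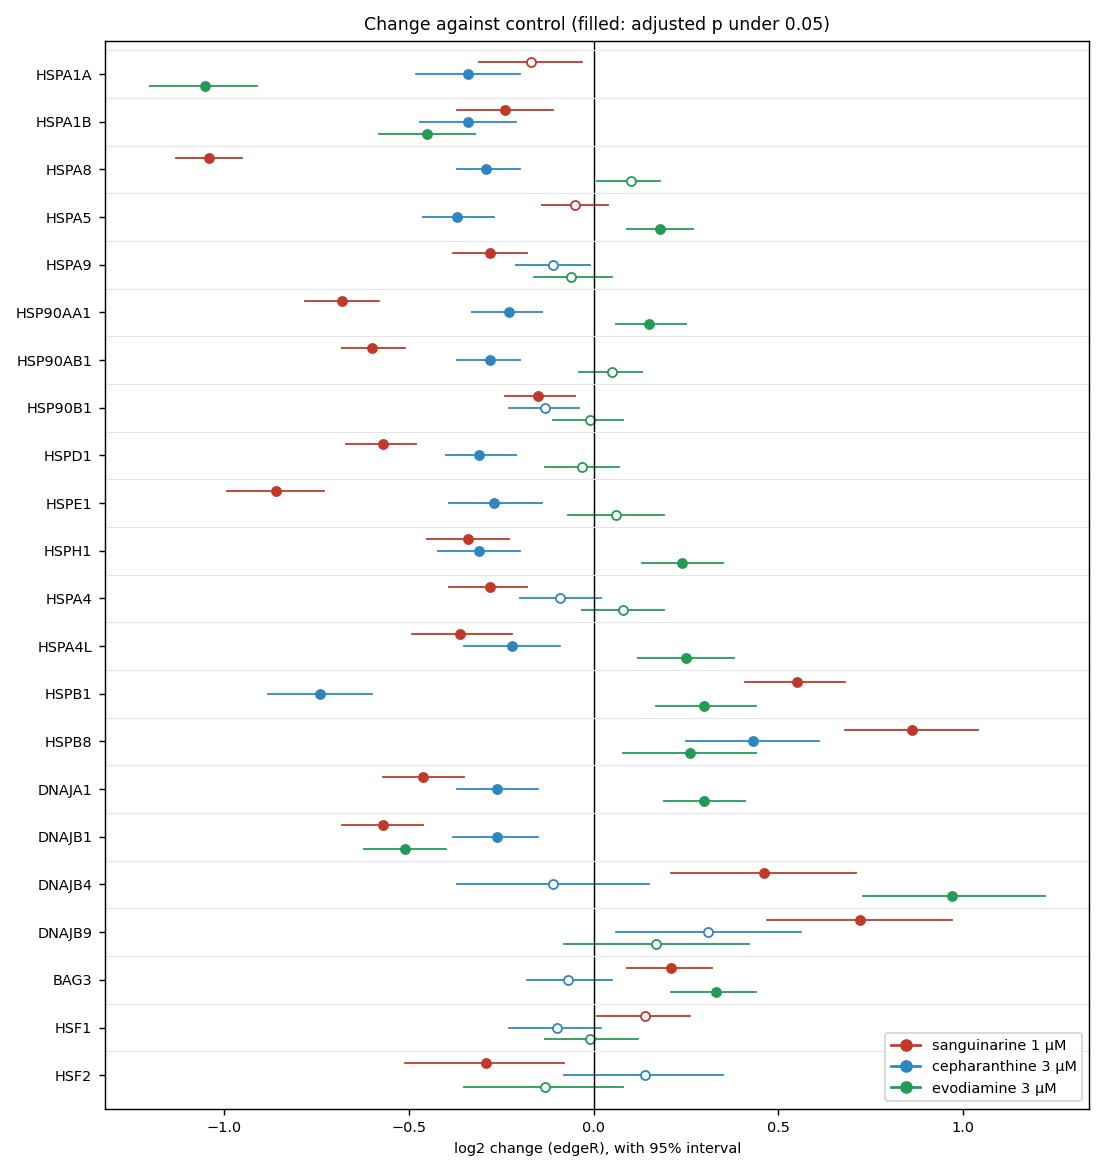
Log2 change against control (horizontal axis) of 22 chaperone genes with sanguinarine, cepharanthine and evodiamine, as points with 95% intervals, filled where the adjusted p is under 0.05. HSPA8, HSP90AA1 and HSPE1 lie at −1.04, −0.68 and −0.86 for sanguinarine, at −0.29, −0.23 and −0.27 for cepharanthine, and at 0.10, 0.15 and 0.06 for evodiamine.

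Cepharanthine gave smaller changes, mostly downward. Of the 69 genes tested, 21 changed (30.4%, against 16.7% of all genes), 5 upward (all genes 9.4%) and 16 downward (all genes 7.3%). The 3 alkaloid comparisons use the same control libraries, and their values are set side by side only. The count depended on the samples that set the spread: in a fit of all 16 libraries together only 3 of the 69 changed, all downward, among 3.56% of all genes.

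HSPB1 fell most with cepharanthine, from 77.3 and 85.5 CPM in the control to 51.5 and 47.5 CPM, a log2 change of −0.74 ± 0.07 (adjusted p = 3.54e-10). HSPA5 had 901 and 918 CPM against 725 and 709 CPM, a log2 change of −0.37 ± 0.05 (adjusted p = 2.52e-07). HSP90AB1 had 2503 and 2511 CPM against 2052 and 2134 CPM and fell by 0.28 ± 0.04 (adjusted p = 4.26e-06). These 3 calls held in every alternative run, the fit of all 16 libraries included. HSPA8 fell by 0.29 ± 0.04, HSPD1 by 0.31 ± 0.05, HSPH1 by 0.31 ± 0.05 and HSPA1A and HSPA1B by 0.34 ± 0.07 and 0.34 ± 0.06, calls lost only in the fit of all 16 libraries. HSPB8 rose by 0.43 ± 0.09, from 15.7 and 16.7 CPM to 22.6 and 21.7 CPM, and is the firmest of the rises. DNAJC4 rose by 0.36 ± 0.11, a call lost without the second control library (0.24, adjusted p = 0.314) or the first cepharanthine library (0.28, adjusted p = 0.134). HSPA13 rose by 0.31 ± 0.08, a call lost without either control library (0.31, adjusted p = 0.0522, and 0.26, adjusted p = 0.116) or the second cepharanthine library (0.19, adjusted p = 0.138). DNAJC6 and DNAJC13, at 0.23 ± 0.08 and 0.19 ± 0.06, were called only under some settings. Of the cofactors 8 fell (all genes 7.3%) and 0 rose (all genes 9.4%), with SERPINH1, the collagen chaperone, at −0.54 ± 0.06, and 6 of the 8 TRiC subunits fell.

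Evodiamine moved HSPA8, HSPD1 and the HSP90 genes little, raised the J-domain genes DNAJB2, DNAJB4 and DNAJB5 and lowered HSPA1A and DNAJB1. Of the 69 genes, 23 changed (33.3%, against 29.7% of all genes), 17 upward (all genes 14.5%) and 6 downward (all genes 15.3%). In the fit of all 16 libraries 9 changed, 5 upward and 4 downward, and the share of all genes there is not given. None of the 9 mitochondrial genes passed the test, and HSPE1 and HSPD1 had 95% intervals of −0.07 to 0.19 and −0.13 to 0.07.

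DNAJB5, a J-domain protein of the DNAJB1 group, had 2.03 and 1.61 CPM in the control and 4.25 and 3.60 CPM with evodiamine, a log2 change of 1.07 ± 0.21 (adjusted p = 0.000154). DNAJB4 rose from 6.79 and 7.48 CPM to 14.5 and 14.4 CPM, a log2 change of 0.97 ± 0.12 (adjusted p = 1.43e-07). DNAJB2 rose from 64.0 and 62.5 CPM to 112 and 113 CPM, a log2 change of 0.79 ± 0.06 (adjusted p = 7.8e-12). DNAJB1, the most abundant of that group, fell instead, from 225 and 218 CPM to 157 and 162 CPM, by 0.51 ± 0.06 (adjusted p = 1.15e-08). None of the libraries of these 4 genes overlapped between the groups, and the share of all genes for which this holds was not computed. All 4 were called in these same libraries, so the lack of overlap is no further support.

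The stress-inducible HSP70 genes HSPA1A and HSPA1B also fell with evodiamine. HSPA6 did not: its log2 change was 0.96 ± 0.43 (95% interval 0.07 to 1.84, adjusted p = 0.0977), with a range of 0.39 to 1.72 over the alternatives. HSPA1A had 74.2 and 71.9 CPM in the control and 35.3 and 37.1 CPM with evodiamine, a log2 change of −1.05 ± 0.07 (adjusted p = 2.38e-13), and HSPA1B fell by 0.45 ± 0.06 (adjusted p = 1.87e-06). HSPH1 rose by 0.24 ± 0.05, DNAJA1 by 0.30 ± 0.05, DNAJB6 by 0.35 ± 0.06 and BAG3 by 0.33 ± 0.06, of which HSPH1 and DNAJA1 lost their call in the fit of all 16 libraries. HSP90AA1, at 0.15 ± 0.05, lost its call without either control library (0.14, adjusted p = 0.11, and 0.14, adjusted p = 0.127) or the second evodiamine library (0.14, adjusted p = 0.0606). Calls that 1 control library carried were HSPB1 (0.30 ± 0.07, and 0.23 without the first, adjusted p = 0.0537), HSPA5 (0.18 ± 0.05, and 0.17 without the first, adjusted p = 0.0555) and HSPA4L (0.25 ± 0.06, and 0.23 without the second, adjusted p = 0.0502). HSPB8, at 0.26 ± 0.09, lost its call when any 1 of the 4 libraries was left out (0.22 to 0.29, adjusted p = 0.0583 to 0.197). Of the cofactors 6 rose (all genes 14.5%) and 2 fell (all genes 15.3%), with CHORDC1 at 0.34 ± 0.07, and 0 of the 8 TRiC subunits changed (log2 change of CCT5 0.01 ± 0.05).

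The alkaloids were then compared with each other in 3 pairs. Sanguinarine was given at 1 µM and the others at 3 µM, so a difference from sanguinarine joins compound and dose. Against cepharanthine, 32 of 69 genes differed (all genes 34.9%), 13 higher (all genes 17.2%) and 19 lower (all genes 17.7%) with sanguinarine. In the fit of all 16 libraries 15 differed, and the share of all genes there is not given. Against evodiamine, 39 differed (all genes 41.3%), 11 higher (all genes 21.7%) and 28 lower (all genes 19.6%). The share that was lower stood above that of all genes in both pairs, at 27.5% against 17.7% and at 40.6% against 19.6%. HSPA8 was lower with sanguinarine than with cepharanthine by a log2 difference of −0.75 ± 0.04 and lower than with evodiamine by −1.14 ± 0.04. HSPB1 was higher than with cepharanthine by 1.29 ± 0.07 (adjusted p = 1.92e-16), the largest among the genes called in that pair after HSPA6 (1.87 ± 0.43), with 128 and 130 CPM against 51.5 and 47.5 CPM. For HSPA1A the log2 difference of sanguinarine from evodiamine was 0.88 ± 0.07 (adjusted p = 8.2e-12). DNAJB1 and DNAJB2 did not differ detectably between sanguinarine and evodiamine, with 95% intervals of −0.17 to 0.05 and −0.10 to 0.15.

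At the matched dose of 3 µM, cepharanthine and evodiamine differed in 32 of the 69 genes (all genes 33.4%). With cepharanthine 9 were higher (all genes 18.3%) and 23 lower (all genes 15.1%). In the fit of all 16 libraries 18 differed, and the share of all genes there is not given. DNAJB4 was lower with cepharanthine by 1.09 ± 0.12 on the log2 scale (adjusted p = 1.14e-08), with 6.50 and 6.93 CPM against 14.5 and 14.4 CPM. HSPB1 had a log2 difference of −1.04 ± 0.07 (adjusted p = 4e-14) and HSPA5 one of −0.55 ± 0.05 (adjusted p = 1.82e-11), with 725 and 709 CPM against 1080 and 1043 CPM. HSPA1A was higher with cepharanthine by 0.71 ± 0.07 (adjusted p = 1.26e-09). For HSPA9 the 95% interval of the difference was −0.15 to 0.05.

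**Figure D3:**
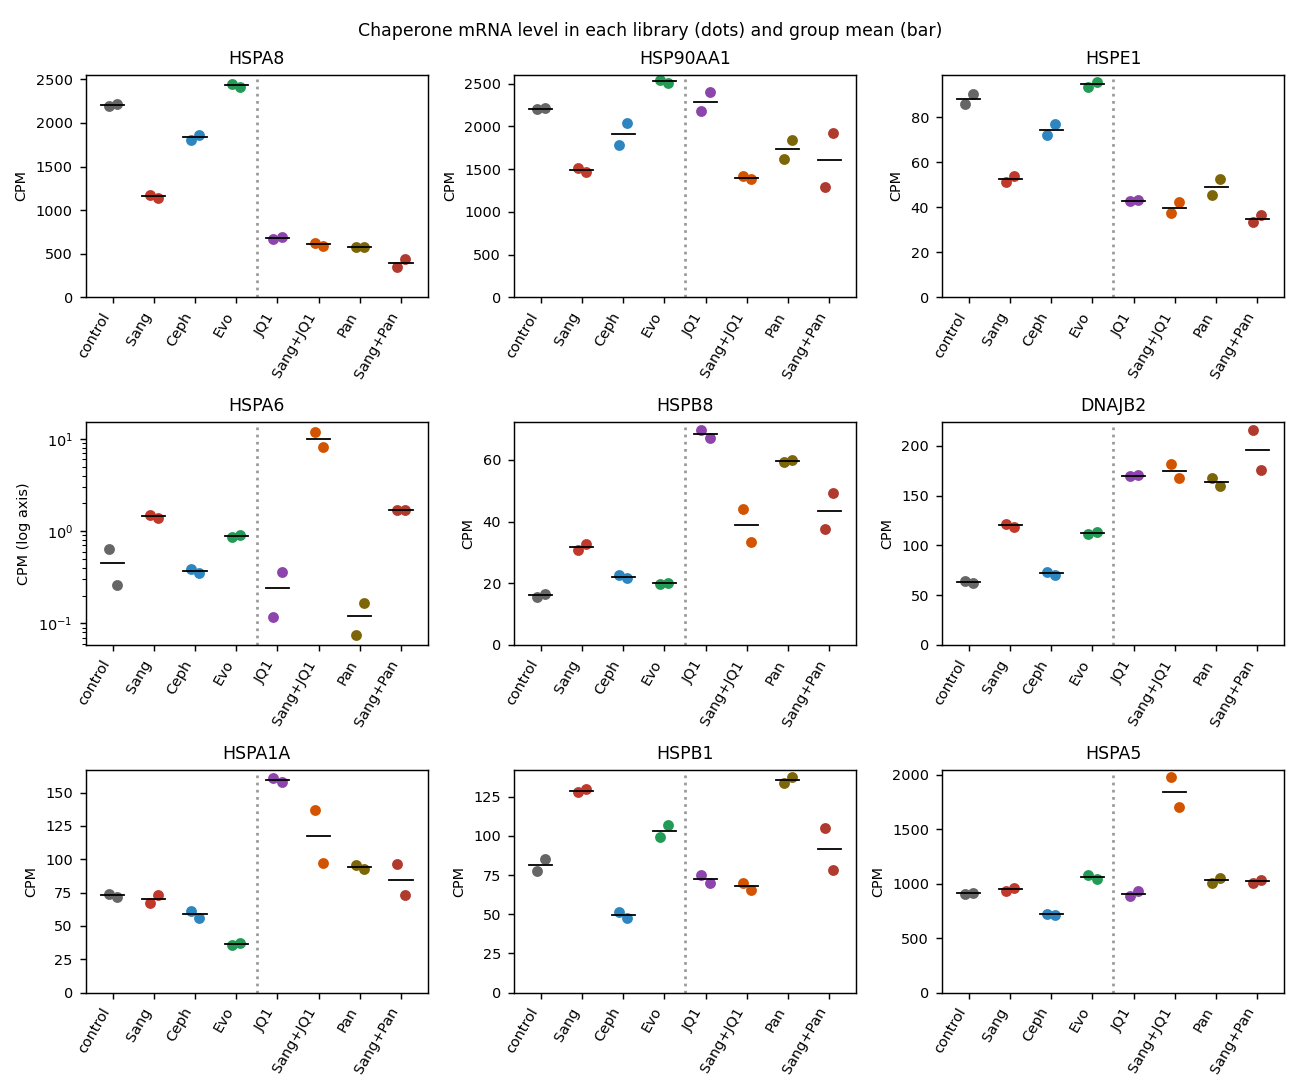
CPM of 9 chaperone genes in each library (dots) with the group mean (bars). The dotted line separates the tables, across which levels are not compared, and HSPA6 has a log axis. HSPA8 is lower with sanguinarine in the first table, and within the second HSPA6 and HSPA5 are highest where sanguinarine was added to JQ1.

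Added to JQ1, sanguinarine raised HSPA6 and HSPA5 and lowered HSP90AA1, HSPB8 and DNAJC6. Of 73 genes tested in the second table, 24 changed (32.9%, against 23.6% of all genes), 9 upward (all genes 14.3%) and 15 downward (all genes 9.29%). Leaving out any 1 of the 4 libraries gave 9 or 10 calls (all genes 10.5% to 13%), so the values below are given with the calls that did not survive it.

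HSPA6 had 5 and 15 counts with JQ1 (0.117 and 0.363 CPM) and 653 and 526 counts with the combination (11.8 and 8.21 CPM). Its log2 change of 5.31 ± 0.40 (adjusted p = 2.78e-07) was the largest of any chaperone gene in this comparison, with a range of 4.74 to 6.32 over the alternatives. HSPA5 had 884 and 932 CPM with JQ1 and 1982 and 1706 CPM with the combination, a log2 change of 0.96 ± 0.13 (adjusted p = 6.81e-05), called in every alternative. HSPA9, the mitochondrial HSP70, went from 216 and 217 CPM to 324 and 328 CPM, a log2 change of 0.52 ± 0.13 (adjusted p = 0.00971), although its call was lost without any 1 of the 4 libraries (0.52 to 0.54, adjusted p = 0.0612 to 0.0982). HSPA13, the other HSP70 of the endoplasmic reticulum, did not pass the test (0.34, adjusted p = 0.153). HSPA2, known for its role in sperm formation, rose by 0.99 ± 0.27, and fell under the threshold without the first JQ1 library (0.71, adjusted p = 0.132) or the first combination library (0.58, adjusted p = 0.249). HSP90B1, the partner of HSPA5 in the endoplasmic reticulum, did not rise with it: it had a log2 change of −0.41 ± 0.14 (adjusted p = 0.0419), a call lost without any 1 of the 4 libraries (−0.43 to −0.36, adjusted p = 0.141 to 0.257).

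HSP90AA1 had 2176 and 2400 CPM with JQ1 and 1416 and 1383 CPM with the combination, a log2 change of −0.78 ± 0.15 (adjusted p = 0.00191). HSP90AB1 did not follow, with a 95% interval of −0.18 to 0.34. HSPB8 fell by 0.88 ± 0.16 (adjusted p = 0.00108), from 69.6 and 67.2 CPM to 44.1 and 33.4 CPM. DNAJC6, the auxilin that recruits HSPA8 to clathrin coats, fell by 1.01 ± 0.14 (adjusted p = 0.000118), from 111 and 108 CPM to 58.6 and 55.8 CPM. These 3 falls were called in every alternative. HSPA1B fell by 0.79 ± 0.16, a call lost without the second combination library (−0.65, adjusted p = 0.0643). HSPH1 fell by 0.75 ± 0.17, a call lost without the first combination library (−0.80, adjusted p = 0.05) or the second (−0.71, adjusted p = 0.0629). DNAJB4 fell by 0.84 ± 0.21, and missed the threshold without the second JQ1 library (−0.78, adjusted p = 0.0532) and without either combination library (−0.85 in both). HSPA8 had a log2 change of −0.24 ± 0.13 (adjusted p = 0.208). Of the cofactors and other heat shock genes 3 rose (all genes 14.3%) and 7 fell (all genes 9.29%). Their calls were not followed when 1 library was left out, so whether they survive it is not known. The largest change was in CRYAB, itself a small heat shock gene, at 3.95 ± 0.41 (adjusted p = 7.06e-06), and ZFAND2A rose by 0.82 ± 0.18 and FKBP4 by 0.68 ± 0.13. CHORDC1 was at −1.17 ± 0.19 and BAG1 at −1.07 ± 0.13, and 0 of 8 TRiC subunits changed (log2 change of CCT5 −0.02 ± 0.13).

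Added to panobinostat, sanguinarine raised HSPA6 and lowered HSPA8 and HSPE1. Of the 4 small heat shock genes tested HSPB1 and HSPB8 were called lower and HSPB6 higher, the last on few counts. None of these small heat shock calls held whichever library was left out. Of the 73 genes, 16 changed (21.9%, against 15.1% of all genes), 4 upward (all genes 6.77%) and 12 downward (all genes 8.35%). This count rests on single libraries: it was 4 without the first panobinostat library (all genes 4.43%), 1 without the second (all genes 1.4%), 36 without the second combination library (all genes 32%) and 26 in the fit of all 16 (all genes 22.9%), so the background moved with it. TMM scaling lowered every log2 change of this comparison by 0.16 relative to plain CPM, and upper quartile scaling moved the share of all calls that were upward from 44.8% to 62.6%.

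HSPA6 had 3 and 7 counts with panobinostat and 92 and 86 counts with the combination (1.69 and 1.71 CPM), a log2 change of 3.61 ± 0.48 (adjusted p = 0.000343). It was the one chaperone gene called in every alternative. HSPA8 had 575 and 579 CPM against 344 and 444 CPM, a log2 change of −0.72 ± 0.13 (adjusted p = 0.00315), and HSPE1 had 45.6 and 52.6 CPM against 33.4 and 36.5 CPM, a log2 change of −0.66 ± 0.14 (adjusted p = 0.00624). Both lost their call only without the second panobinostat library (−0.69, adjusted p = 0.0594, and −0.52, adjusted p = 0.17). HSPB1 fell by 0.73 ± 0.15 and HSPB8 by 0.63 ± 0.16, calls lost without either panobinostat library (HSPB1 −0.72 and −0.68, HSPB8 −0.61 and −0.59). The read-through gene DNAJC25-GNG10 fell by 1.12 ± 0.23, and its reads cannot be separated from those of the genes it overlaps. DNAJB14, a membrane J-domain protein of the endoplasmic reticulum, fell by 0.77 ± 0.20, and the synaptic vesicle protein DNAJC5 rose by 0.53 ± 0.13, and both lost their call without either panobinostat library (DNAJB14 −0.84 and −0.65, DNAJC5 0.60 and 0.51). HSPB6 and DNAJC5G were called upward on 1 and 1 and on 2 and 5 counts with panobinostat, too few for a fold.

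HSPA5 had 1007 and 1050 CPM with panobinostat and 1007 and 1036 CPM with the combination (log2 change −0.17 ± 0.13, adjusted p = 0.37). HSP90AA1 had 1624 and 1839 CPM against 1297 and 1919 CPM, so that the combination libraries lay on either side of the single drug. Of the cofactors 1 rose (all genes 6.77%), ZFAND2A by 0.84 ± 0.18, and 6 fell (all genes 8.35%), and 1 of 8 TRiC subunits fell, CCT4.

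**Figure D4:**
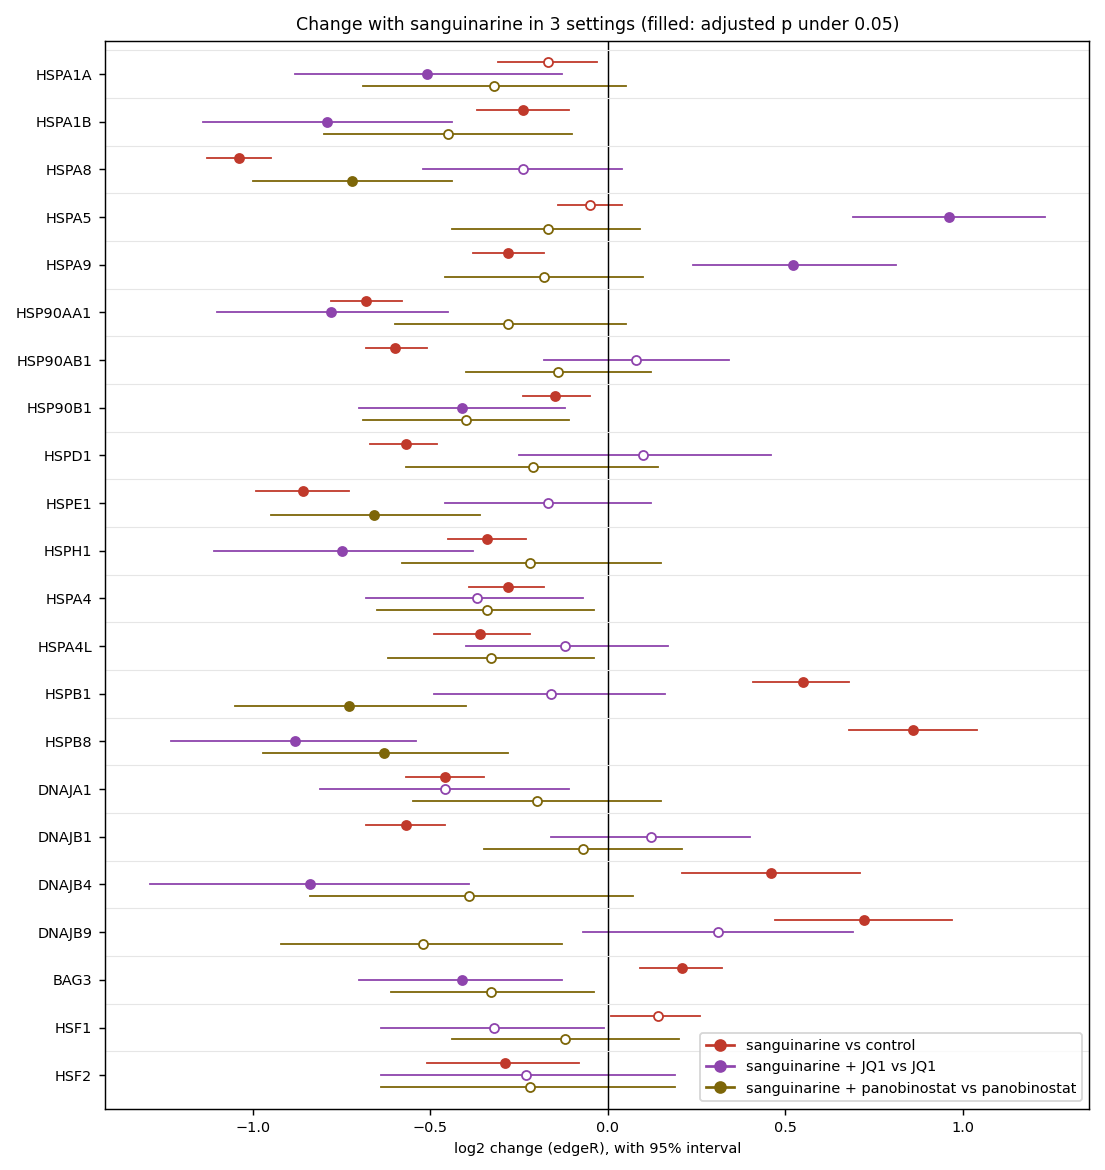
Log2 change with sanguinarine (horizontal axis) of 22 chaperone genes without a second drug, on top of JQ1 and on top of panobinostat, as points with 95% intervals, filled where the adjusted p is under 0.05. HSPB8 lies at 0.86 without a second drug and at −0.88 and −0.63 with one, and HSPA5 lies at 0.96 with JQ1, at −0.05 without a second drug and at −0.17 with panobinostat. The change without a second drug is from the first table and the others are from the second.

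Whether the change with sanguinarine differed with a partner drug present was tested as an interaction in a fit of all 16 libraries, in which an offset between the tables that is constant on the log2 scale cancels. A sanguinarine change of another size in the second table does not cancel. All libraries with a partner drug stood in that table and all without one in the first, so partner and table cannot be told apart. With JQ1, 22 of 75 genes tested had a different change (29.3%, against 18.1% of all genes), 14 upward (all genes 9.83%) and 8 downward (all genes 8.25%). Fitted on the 8 libraries of those 4 groups alone, 36 did, and the share of all genes there is not given. With panobinostat 18 did (24%, against 16.6%), 8 upward (all genes 7.91%) and 10 downward (all genes 8.65%), and 29 did without the first library of sanguinarine with panobinostat. The interactions share the control and sanguinarine libraries.

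Among the genes called, HSPB8 had the most negative interaction with both partners, −1.73 ± 0.18 with JQ1 (adjusted p = 2.48e-06) and −1.41 ± 0.18 with panobinostat (adjusted p = 3.86e-05), since sanguinarine raised it alone and lowered it in both combinations. HSPB1 had interactions of −0.70 ± 0.18 and −1.20 ± 0.18. The first of these was lost without the first control library (−0.63, adjusted p = 0.0593) or the first JQ1 library (−0.60, adjusted p = 0.0585). HSPA6 had positive interactions of 3.73 ± 0.60 with JQ1 (adjusted p = 2e-04) and 2.08 ± 0.67 with panobinostat. The latter was lost without the first control library (1.31, adjusted p = 0.294), either sanguinarine library (2.14, adjusted p = 0.0726, and 2.02, adjusted p = 0.0869) or either panobinostat library (1.62, adjusted p = 0.184, and 2.74, adjusted p = 0.0647).

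Of the 7 genes over 100 RPKM in the control that fell with sanguinarine by itself, HSPA8, HSP90AB1, HSPD1 and HSPA9 had positive interactions with JQ1 that passed the test. The interaction subtracts that same fall, from the same libraries, so its sign in genes chosen for falling is a description. HSPA8 had an interaction of 0.81 ± 0.13 (adjusted p = 0.000149), HSP90AB1 one of 0.69 ± 0.11, and HSPD1 one of 0.69 ± 0.18, which lost its call without the first combination library (0.61, adjusted p = 0.0509). The other members of the 7 did not pass: HSP90AA1 had −0.09 ± 0.16 (95% interval −0.42 to 0.25), DNAJA1 0.01 ± 0.18 and HSP90B1 −0.25 ± 0.14. Less abundant genes with positive interactions were HSPE1 (0.70 ± 0.14), DNAJB1 (0.70 ± 0.14) and DNAJC9 (0.86 ± 0.15). HSPE1 also overlaps HSPE1-MOB4, whose level differed between the tables, and the division of reads between them was not tested. HSPA5 had an interaction of 1.02 ± 0.12 with JQ1 (adjusted p = 8.99e-06) and of −0.05 ± 0.12 with panobinostat (95% interval −0.30 to 0.21), and HSPA9 one of 0.81 ± 0.13 with JQ1. On top of panobinostat DNAJC9 (1.04 ± 0.16) and HSP90AB1 (0.53 ± 0.11) were again positive and DNAJB9 was negative (−1.17 ± 0.23), while HSPA8 (0.39 ± 0.13, adjusted p = 0.0375) lost its call when any 1 library other than the first of the combination was left out (0.24 to 0.42). HSF1 and HSF2 passed in neither interaction, with log2 values of −0.45 ± 0.17 and 0.08 ± 0.22 for JQ1.

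The partner drugs by themselves differed in 45 of 73 chaperone genes (61.6%, against 53.8% of all genes), 24 higher with JQ1 (all genes 23.1%) and 21 lower (all genes 30.7%). The median log2 difference of all genes was −0.10 in this comparison and between −0.17 and −0.05 under other scalings. HSPA1B had 255 and 237 CPM with JQ1 and 113 and 110 CPM with panobinostat, a log2 difference of 1.23 ± 0.17 (adjusted p = 1.48e-05). HSPH1 had 199 and 214 CPM against 101 and 97.3 CPM, a log2 difference of 1.15 ± 0.17 (adjusted p = 4.64e-05). HSPA1A (0.85 ± 0.18), HSPA4L (1.01 ± 0.14), DNAJB4 (1.00 ± 0.21) and HSF1 (0.82 ± 0.15) were higher with JQ1 as well. DNAJB9 had 46.1 and 47.2 CPM against 12.6 and 16.8 CPM (1.76 ± 0.19), whereas HSPA5 did not pass (−0.09 ± 0.13). DNAJA4 was higher by 2.10 ± 0.17, DNAJC6 by 1.36 ± 0.14 and DNAJC9 by 1.23 ± 0.15.

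Several genes were lower with JQ1 by more than 4-fold. DNAJC22 had 2 and 6 counts with JQ1 and 127 and 181 with panobinostat, and DNAJC12, a partner of aromatic amino acid hydroxylases, had 2 and 15 counts against 186 and 253, with fitted log2 differences of −5.17 ± 0.48 and −4.61 ± 0.45 that rest on few counts. HSPA2 had 5.68 and 9.26 CPM against 38.8 and 33.9 CPM (−2.19 ± 0.27, adjusted p = 6.79e-06), HSPA1L differed by −2.10 ± 0.31 and HSPB7 by −2.31 ± 0.59. In the other direction HSPB6 was called higher with JQ1 on 7 and 12 counts against 1 and 1, too few for a fold. HSPB1 was lower with JQ1, with 75.2 and 69.7 CPM against 134 and 138 CPM (−0.81 ± 0.15, adjusted p = 0.000346). HSPA8 (0.34 ± 0.13) and HSPA9 (−0.38 ± 0.13) were called but lost their call without any 1 of the 4 libraries (HSPA8 0.33 to 0.42, HSPA9 −0.39 to −0.25). No untreated or single-sanguinarine library stood in the second table, so neither drug could be set against the control within it.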

How the data were processed

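Polyadenylated RNA of 16 libraries was sequenced, and the submitters' processing notes name STAR 2.5.1, DESeq2 and GRCh38/hg38. The annotation named in the series design carries a mouse release name, so no coordinates from the files are given. The authors deposited 2 tables of raw counts per gene with RPKM beside them, per the file headers. The deposited counts were tested, and the deposited RPKM values served to rank genes within the control.

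Each table was fitted by itself with edgeR 4.0.16 (R 4.3.3, limma 3.58.1): filterByExpr, TMM scaling, a quasi-likelihood test over its 8 libraries, and Benjamini-Hochberg adjustment over all genes tested, with a threshold of 0.05. The 2 interactions came from 1 fit of all 16 libraries. Scripts were tested on simulated data. CPM values are plain, without TMM scaling. Standard errors and 95% intervals are approximate, from the F statistic, and cover poorly at few counts. Depth was 39996881 to 64060919 counts, and the limit at 3 counts covers counting error only.

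The genes and lists were chosen with earlier results of these data known. The genes named were a fixed list of the main chaperones, plus the 5 largest called changes in each direction of each comparison and interaction; other genes were named after their values were seen. Alternatives were DESeq2 1.42.0, DESeq2 size factors, upper quartile scaling, no filter, other sets of libraries, leaving out each library and, in the second table, a replicate block.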

Additional observations from a re-analysis of the deposited data

Results flagged for a closer look

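The change with sanguinarine differed between cells without a second drug and cells with JQ1, by an interaction test over all genes (edgeR), for the following genes, on the log2 scale. The interaction was 3.73 for HSPA6, 1.02 for HSPA5, 0.86 for DNAJC9, 0.81 for HSPA8 and 0.81 for HSPA9. It was −1.73 for HSPB8, −1.58 for DNAJC4, −1.29 for DNAJB4, −0.98 for DNAJC6 and −0.83 for DNAJB2. These were the largest called in each direction, and none of these 10 calls was lost by leaving out 1 library. Partner drug and table cannot be told apart in these values or in those with panobinostat.

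With panobinostat the interaction was 2.08 for HSPA6, 1.04 for DNAJC9, 0.69 for DNAJC5, 0.68 for DNAJC11 and 0.60 for DNAJA4. It was −1.41 for HSPB8, −1.20 for HSPB1, −1.17 for DNAJB9, −0.89 for DNAJB14 and −0.86 for DNAJC4. Leaving out 1 library ended the call of HSPA6 for 5 libraries, of DNAJA4 for 7, of DNAJC4 for the second control or second sanguinarine library (−0.79 in both) and of DNAJB14 for the second panobinostat library (−0.82). The duplicates of sanguinarine with panobinostat also differed most, and the part of that difference in these values was not tested.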

How the results depend on the processing

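The genes named in the text by the fixed rule were the ones followed gene by gene. For them, no result called in the main fit or in an alternative reversed its direction. Results called in neither changed sign in 136 cases, each 1 gene in 1 comparison under 1 alternative. A fit of all 16 libraries together moved the count of chaperone genes called to 3 for cepharanthine, 9 for evodiamine, 15 for sanguinarine against cepharanthine, 18 for cepharanthine against evodiamine and 26 for sanguinarine added to panobinostat. With only the groups compared, the interaction with JQ1 called 36. Leaving out 1 library gave 36 to 38 calls for sanguinarine, 14 to 24 for cepharanthine, 16 to 20 for evodiamine, 9 to 10 for sanguinarine added to JQ1, 1 to 36 for sanguinarine added to panobinostat, 32 to 36 for JQ1 against panobinostat, 17 to 24 for the interaction with JQ1 and 12 to 29 for that with panobinostat. Such a refit leaves a group with 1 library, assumed to vary like the others. In the second table the deviations of libraries with the same number correlated between −0.07 and 0.30 (0.30 for panobinostat and its combination, 0.00 for JQ1 and its combination). Not every pair exceeded 0.1, so the numbers were not taken to pair the libraries. The titles of the first table share no numbers between groups. With the replicate block, 27 genes were called for sanguinarine added to JQ1, 20 added to panobinostat and 46 for JQ1 against panobinostat. No share of all genes stands beside the counts in this paragraph, so they cannot show whether a move was particular to the chaperone genes. With 2 libraries a group, small changes of low genes were not detectable.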
